A study of Mus musculus with 8 samples.

Results

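The variable (V) segments of the T cell receptor (TCR) α and β chains were described in RNA libraries of mouse regulatory T (Treg) cells. Members were all genes with a GENCODE M21 symbol starting with Trav or Trbv and an FPKM of 1 or more in at least 1 of 8 libraries. FPKM is the number of fragments on a gene, scaled to its exon length and to the fragments of the library. Of 163 Trav and Trbv genes among the 53465 gene identifiers, 112 met this rule, namely 88 of 128 Trav genes on chromosome 14 and 24 of 35 Trbv genes on chromosome 6. FPKM was 1 or more in all 8 libraries for 83 of the 112, which were 62 Trav and 21 Trbv segments. The annotation lists 9 of the 112 as pseudogenes. Just inside the limit lay Trbv22, Trav18 and Trbv21, with highest FPKM of 1.03, 1.07 and 1.32. Just outside lay Trav12n-1, Trav11 and Trav6d-7, with 0.964, 0.960 and 0.838.

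Each condition had 1 library, so that no difference below has a replicate check and no p-value is given. All mice were labelled C57BL/6, were 3–4 weeks old and carried R26CAG-FlpoER, a Flpo recombinase that tamoxifen (TAM) switches on, and cells came from spleen and lymph nodes. In the total Treg experiment, the WT library came from BrgF/+ Foxp3YFP-Cre/+ mice, which are heterozygous for Brg1, the gene of the BAF complex ATPase. Healthy mosaic females (BrgF/ΔR Foxp3YFP-Cre/+) expressed Cre in part of their Treg cells, through random X inactivation. They gave a Brg1-sufficient library of YFP− cells and a Brg1-deleted library of YFP+ cells. The subsets, given as Foxp3+/+ and Foxp3YFP-Cre, came from animals of this 1 genotype. Inflamed rKO1 mice (BrgF/ΔR Foxp3YFP-Cre/YFP-Cre) gave an untreated Brg1-deleted library, and, 7 days after TAM, a Brg1-deleted (GFP+) and a Brg1-reexpressed (GFP−) library. The genotype of the reexpressed library is listed as BrgF/+. In the separate aTreg experiment, activated Treg cells (CD44hi CD62Llo) of rKO1 mice 7 days after TAM gave a library labelled Brg1-deleted and another labelled Brg1-reexpressed, with the listed genotypes BrgF/F and BrgF/+. The value column of the former is headed as WT. Cre was expressed from the Foxp3 locus, and therefore in Treg cells. The ΔR allele was made on a mixed C57BL/6;129 Sv background and was backcrossed to C57BL/6 for 3 generations, and whether animals were pooled is not stated.

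A TCR α chain is encoded by a V and a J segment joined to the constant gene Trac, and a β chain by V, D and J segments joined to Trbc1 or Trbc2. The V segment supplies the leader and most of the antigen-binding domain, including the first bases of the CDR3 loop, which starts at a conserved cysteine. In the thymus the α locus can rearrange repeatedly, and later joins use V segments that lie farther from the J segments, with Trav1 at the far end. Treg cells are selected in part by the affinity of their TCR for self antigens, and their repertoire is normally broad. Reads on a V gene do not show whether the join was in frame, and fewer cells using a segment cannot be told apart from less TCR RNA per cell.

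The V exons of the segments that the results turn on are given first, from the GENCODE M21 transcripts (GRCm38), on the coding strand. For Trbv26, Trbv12-2, Trbv12-1 and Trbv13-2, whose usage differed among the libraries, and for Trav14d-3-dv8, the capitals run from the TGT codon of the conserved cysteine to the end of the segment.
Trbv26, chr6:41227699-41227993, plus strand: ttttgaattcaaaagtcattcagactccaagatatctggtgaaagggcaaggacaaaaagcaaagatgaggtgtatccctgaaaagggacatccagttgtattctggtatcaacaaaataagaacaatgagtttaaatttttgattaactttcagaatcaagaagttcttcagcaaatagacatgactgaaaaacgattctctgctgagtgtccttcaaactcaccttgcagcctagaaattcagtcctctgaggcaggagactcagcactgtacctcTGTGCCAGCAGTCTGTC
Trbv12-2, chr6:41119072-41119364, plus strand: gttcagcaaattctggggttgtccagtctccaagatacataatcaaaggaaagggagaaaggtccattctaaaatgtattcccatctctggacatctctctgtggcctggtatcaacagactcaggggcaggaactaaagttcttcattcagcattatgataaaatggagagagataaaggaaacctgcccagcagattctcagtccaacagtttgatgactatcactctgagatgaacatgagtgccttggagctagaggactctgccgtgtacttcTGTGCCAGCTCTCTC
Trbv12-1, chr6:41113775-41114067, plus strand: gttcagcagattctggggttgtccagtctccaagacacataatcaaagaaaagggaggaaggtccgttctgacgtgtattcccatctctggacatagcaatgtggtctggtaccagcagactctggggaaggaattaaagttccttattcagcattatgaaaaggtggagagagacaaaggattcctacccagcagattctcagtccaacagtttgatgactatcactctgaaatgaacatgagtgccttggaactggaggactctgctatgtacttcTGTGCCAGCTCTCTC
Trbv13-2, chr6:41121539-41121832, plus strand: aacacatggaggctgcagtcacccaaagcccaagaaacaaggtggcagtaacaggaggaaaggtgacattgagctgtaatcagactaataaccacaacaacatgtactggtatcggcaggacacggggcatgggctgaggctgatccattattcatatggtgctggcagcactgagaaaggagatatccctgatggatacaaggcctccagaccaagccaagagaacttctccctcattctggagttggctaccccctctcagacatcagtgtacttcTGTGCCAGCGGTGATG
Trav14d-3-dv8, chr14:53078746-53079045 (last 300 bases), plus strand: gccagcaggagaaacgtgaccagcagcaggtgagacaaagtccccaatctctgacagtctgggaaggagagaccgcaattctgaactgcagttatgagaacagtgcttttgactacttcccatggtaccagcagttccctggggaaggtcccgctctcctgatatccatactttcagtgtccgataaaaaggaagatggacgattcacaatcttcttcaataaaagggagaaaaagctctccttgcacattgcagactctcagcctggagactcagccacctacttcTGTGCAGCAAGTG
Trbv12-1 and Trbv12-2 differed by 32 bases (89.1% identity). Trbv26 was 58.0% identical to Trbv12-2, 51.9% to Trbv13-2 and 74.2% to Trbv23. No window of 100 bases of any of the 24 Trbv segments occurred in another V segment, so that a read of that length can be told from the other V segments. Trbv4 and Trbv5 overlap another annotated gene, and their reads may not be assignable to 1 gene. Of the 22 Trbv segments annotated as coding, 14 (63.6%) held TGTGCC within their last 30 bases on the coding strand, Trbv26, Trbv12-1, Trbv12-2 and Trbv13-2 among them.

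The α locus of C57BL/6 mice holds copies of a block of segments, marked by d and n in the symbols. Among the 88 Trav segments, 13 shared all their windows of 100 bases with another V segment, 26 shared 50% or more and 21 shared none. The assignment of reads is therefore uncertain for many copies, as shown by Trav7-4 and its d and n copies, where the capitals mark bases that differ from Trav7-4.
Trav7-4, chr14:53461447-53461738, plus strand: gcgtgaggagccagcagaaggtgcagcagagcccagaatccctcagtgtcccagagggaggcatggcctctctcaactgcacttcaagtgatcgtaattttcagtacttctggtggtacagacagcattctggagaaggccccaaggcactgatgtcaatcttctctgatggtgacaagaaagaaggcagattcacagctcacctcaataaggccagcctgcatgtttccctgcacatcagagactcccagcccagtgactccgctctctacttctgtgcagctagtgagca
Trav7d-4, chr14:52770101-52770392, plus strand: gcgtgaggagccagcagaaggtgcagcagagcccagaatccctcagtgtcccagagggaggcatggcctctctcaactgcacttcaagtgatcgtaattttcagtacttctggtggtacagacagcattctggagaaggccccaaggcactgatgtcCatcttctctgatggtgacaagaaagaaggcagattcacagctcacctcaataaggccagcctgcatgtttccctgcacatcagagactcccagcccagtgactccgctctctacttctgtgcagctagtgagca
Trav7n-4, chr14:53091584-53091875, plus strand: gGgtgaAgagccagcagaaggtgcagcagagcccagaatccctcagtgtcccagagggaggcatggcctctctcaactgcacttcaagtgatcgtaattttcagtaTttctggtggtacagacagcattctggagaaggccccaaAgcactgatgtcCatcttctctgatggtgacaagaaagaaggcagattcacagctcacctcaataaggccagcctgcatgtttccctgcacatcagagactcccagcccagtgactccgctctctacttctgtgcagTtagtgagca
Trav7d-4 differed from Trav7-4 by 1 base and Trav7n-4 by 6 bases.

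The values were turned into reads by multiplying each by the exon length of its gene, and the values of all members came out as whole numbers. Per library there were 16324015–24093541 reads on genes, 3637–9448 on the Trav segments and 7513–22415 on the Trbv segments. A floor of 3 reads corresponded to 0.0318–0.0825% of the Trav reads and 0.0134–0.0399% of the Trbv reads. The 95% intervals below are exact binomial intervals of these reads. They cover counting error only, as reads without molecular identifiers are not independent molecules and animals were not replicated. Treg markers were present in every library: Foxp3 had an FPKM of 13.4–137 and Il2ra one of 46.9–75.9. Genes of other cells were present too. Of the CD8 coreceptor chains, Cd8a was at 0.0697–0.879 and Cd8b1 at 4.19–16, the B cell gene Ighm was at 53.5–697 and the myeloid gene Lyz2 at 20.4–470. Of 4 thymocyte genes, Rag2 and Ptcra were at 0 in all 8 libraries, Rag1 was at 0.00908 or less and Dntt at 0.300 or less. The part of such cells in segment usage was not tested. Smarca4, which encodes BRG1, had an FPKM of 14.8 in WT, 12.1 in mosaic Brg1-sufficient, 7.44 in mosaic Brg1-deleted, 7.34 in untreated rKO1, 6.13 in rKO1 Brg1-deleted and 9.52 in rKO1 Brg1-reexpressed Treg cells. In the aTreg libraries it was 11.1 in the library labelled Brg1-deleted and 9.02 in that labelled Brg1-reexpressed, against their labels.

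The summed Trav FPKM was 766 in WT, 814 in mosaic Brg1-sufficient, 816 in mosaic Brg1-deleted, 529 in untreated rKO1, 611 in rKO1 Brg1-deleted and 971 in rKO1 Brg1-reexpressed Treg cells. The summed Trbv FPKM was 2290, 1591, 1674, 1074, 1450 and 1655 in the same order. Untreated rKO1 Treg cells had the lowest sum for both chains. Relative to the constant genes, Trav was 0.487–0.550 times Trac in 5 of these libraries and 0.732 times in mosaic Brg1-deleted cells, and Trbv 0.330–0.422 times the sum of Trbc1 and Trbc2. In the aTreg libraries, labelled Brg1-deleted and Brg1-reexpressed, the Trav sums were 1004 and 1208 (0.280 and 0.379 times Trac) and the Trbv sums 2965 and 2814 (0.385 and 0.412 times the constant genes). All shares below are shares of these sums, and so do not depend on the scaling between libraries.

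The β segments most used over the 6 total Treg libraries were Trbv13-2, Trbv1, Trbv3, Trbv16, Trbv12-2, Trbv20, Trbv13-3 and Trbv19, which together took 63.7–67.9% of the Trbv FPKM in each library. Trbv13-2 led in WT (12.7%), mosaic Brg1-sufficient (10.9%) and mosaic Brg1-deleted cells (10.6%). Trbv12-2 led in untreated rKO1 (12.7%) and rKO1 Brg1-deleted cells (9.41%), and Trbv1 in rKO1 Brg1-reexpressed cells (11.2%). In rKO1 Brg1-deleted cells, Trbv1 followed closely with 9.30%. The leader also depended on the division by exon length: as shares of reads, Trbv3 led in WT (11.1%), mosaic Brg1-deleted (9.84%) and rKO1 Brg1-deleted cells (9.87%), and Trbv1 in mosaic Brg1-sufficient (10.9%) and rKO1 Brg1-reexpressed cells (11.7%). Trbv12-2 led in untreated rKO1 cells on both scales (12.3% of reads). At the other end, Trbv4, Trbv5, Trbv21, Trbv22 and Trbv24 stayed under 1% in all 8 libraries, as did Trbv30. Of the exons of Trbv4 and Trbv5, 75.1% and 79.3% lie in another annotated gene, so that the values of both are uncertain. Among the 18 Trbv segments with a mean share of 1% or more over the 6 libraries, the highest share was a median 1.49 times the lowest, and it was at least 2 times the lowest for 5 segments.

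**Figure D1:**
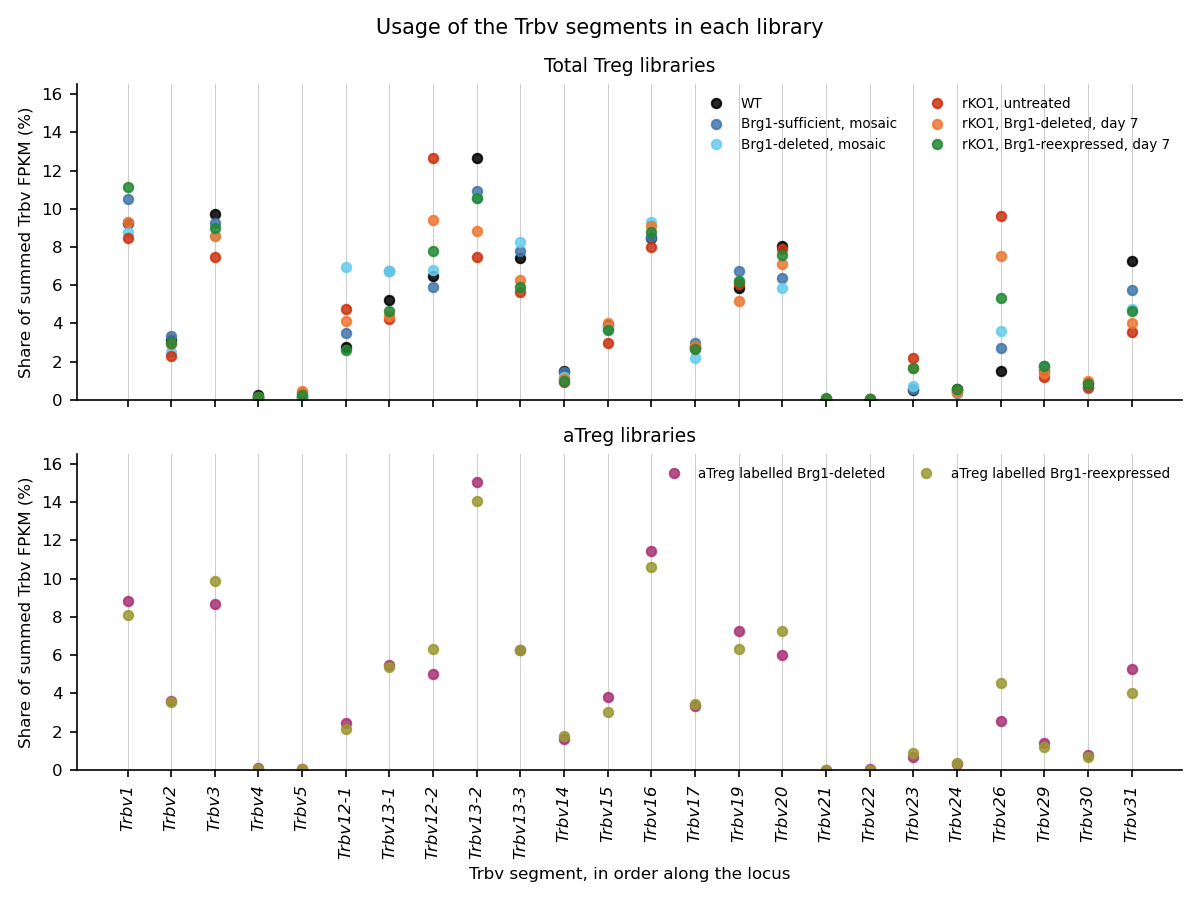
Share of the summed Trbv FPKM (percent, y axis) of the 24 Trbv segments in their order along the locus (x axis), with 1 point per library, in the 6 total Treg libraries (top) and the 2 aTreg libraries (bottom). Trbv26 ranges from 1.51% (WT) to 9.63% (untreated rKO1) and Trbv12-2 from 5.93% to 12.7%, while Trbv16 stays between 8.0% and 9.32% in the total Treg libraries.

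Trbv26 varied most among these segments. Its share was 1.51% in WT (193 reads), 2.71% in mosaic Brg1-sufficient (329 reads) and 3.59% in mosaic Brg1-deleted cells (525 reads). In rKO1 mice it was 9.63% without TAM (672 reads), 7.53% in Brg1-deleted cells (668 reads) and 5.33% in Brg1-reexpressed cells (511 reads). All rKO1 total Treg libraries were above the WT and both mosaic libraries, and the highest share was 6.37 times the lowest. The aTreg libraries, also from rKO1 mice, had 2.56% (labelled Brg1-deleted) and 4.55% (labelled Brg1-reexpressed). As a share of reads, the 95% intervals ran from 1.21–1.61% in WT to 8.31–9.61% in untreated rKO1 cells, and no interval overlapped that of its neighbour in the order of the 6 libraries. Of the 112 segments, Trbv26 was the one for which this held. Its level differed in the same direction although summed Trbv was lower: the FPKM of Trbv26 was 103 in untreated rKO1 and 34.6 in WT cells, and that of Trbv13-2 was 80.4 and 290.

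Trbv12-2 showed a similar order within the rKO1 libraries. Its share was 12.7% in untreated rKO1 (926 reads), 9.41% in rKO1 Brg1-deleted (875 reads) and 7.77% in rKO1 Brg1-reexpressed cells (782 reads). It was 6.5% in WT (871 reads), 5.93% in mosaic Brg1-sufficient (756 reads) and 6.80% in mosaic Brg1-deleted cells (1042 reads). The WT share overlapped both mosaic shares within the counting intervals, and the 3 rKO1 libraries lay above them. Trbv23, a lesser used segment, was 0.50%, 0.57% and 0.70% in WT, mosaic Brg1-sufficient and mosaic Brg1-deleted cells. It was 2.20%, 1.69% and 1.69% in untreated, Brg1-deleted and Brg1-reexpressed rKO1 total Treg cells, with no overlap between these groups of libraries. The aTreg libraries labelled Brg1-deleted and Brg1-reexpressed had 0.67% and 0.86%.

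Trbv12-1, the neighbour of Trbv12-2, followed another order. Its share was 2.79% in WT (378 reads), 3.51% in mosaic Brg1-sufficient (452 reads) and 6.97% in mosaic Brg1-deleted cells (1080 reads). It was 4.76% in untreated rKO1 (352 reads), 4.14% in rKO1 Brg1-deleted (389 reads) and 2.64% in rKO1 Brg1-reexpressed cells (268 reads). The Brg1-deleted libraries were thus the 3 highest. Yet the mosaic Brg1-sufficient and the rKO1 Brg1-deleted shares overlapped within counting error, as did those of the other neighbours except mosaic Brg1-deleted above untreated rKO1, and mosaic Brg1-sufficient above WT.

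Other β segments were lowest in untreated rKO1 cells. Trbv13-2 had a share of 12.7% in WT, 10.9% in mosaic Brg1-sufficient, 10.6% in mosaic Brg1-deleted, 7.49% in untreated rKO1, 8.81% in rKO1 Brg1-deleted and 10.6% in rKO1 Brg1-reexpressed cells. Trbv31, which lies on the far side of the constant genes in reverse orientation and joins by inversion, had shares of 7.26%, 5.73%, 4.78%, 3.54%, 4.02% and 4.67% in the same order. For both segments the counting intervals of rKO1 Brg1-reexpressed and mosaic Brg1-deleted cells overlapped, so that the rKO1 libraries were not separate from the others. The family of Trbv13-1, Trbv13-2 and Trbv13-3 together took 25.3%, 25.5% and 25.6% in the WT and mosaic libraries. It took 17.4%, 19.5% and 21.1% in the rKO1 total Treg libraries. In the aTreg libraries labelled Brg1-deleted and Brg1-reexpressed it took 26.8% and 25.7%. Trbv16 (8.0–9.32%) and Trbv3 (7.49–9.71%) moved little by comparison, and Trbv16 shares of all neighbouring libraries overlapped within counting error.

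**Figure D2:**
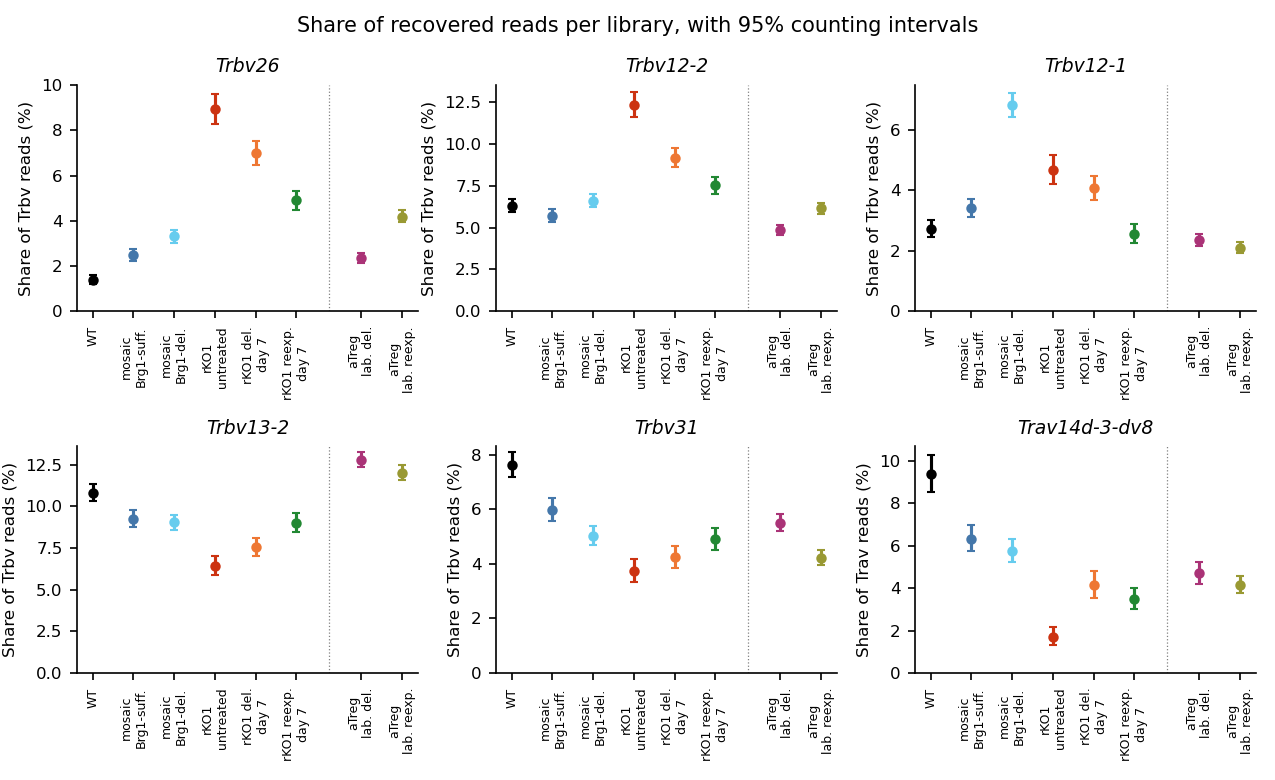
Share of the recovered Trbv or Trav reads (percent, y axis from 0) of 6 segments in each of the 8 libraries (x axis; aTreg libraries right of the dotted line), with exact 95% binomial intervals as bars, which cover counting error only. Trbv26 rises from 1.40% of reads in WT to 8.94% in untreated rKO1 cells without overlap between neighbours, Trbv12-1 peaks at 6.83% in mosaic Brg1-deleted cells, and Trav14d-3-dv8 falls from 9.36% in WT to 1.70% in untreated rKO1 cells.

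Shares sum to a whole, so that a high share of some segments lowers the others. Trbv26 and Trbv12-2 together took 8.02%, 8.64% and 10.4% in WT, mosaic Brg1-sufficient and mosaic Brg1-deleted cells, and 22.3%, 16.9% and 13.1% in untreated, Brg1-deleted and Brg1-reexpressed rKO1 cells. Untreated rKO1 cells had the lowest share for 11 of the 18 Trbv segments with a mean of 1% or more. When shares were taken among the other 22 segments, a choice made after the values were seen, this was so for 4 of 16.

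Among the α segments, Trav7-4, Trav14d-3-dv8, Trav14-2, Trav3-3, Trav17, Trav13-1, Trav14-3 and Trav14-1 had the highest mean shares, and these 8 together took 26.2–32.6% of the Trav FPKM in each total Treg library. Trav14d-3-dv8, which can also join in the δ locus, was the most used α segment in WT (8.05%, 427 reads), mosaic Brg1-sufficient (5.40%, 417 reads) and mosaic Brg1-deleted cells (4.93%, 436 reads). It was 1.45% in untreated rKO1 (62 reads), 3.51% in rKO1 Brg1-deleted (163 reads) and 2.96% in rKO1 Brg1-reexpressed cells (207 reads). The 3 rKO1 libraries lay below the WT and mosaic libraries, and the counting intervals of the rKO1 Brg1-deleted and Brg1-reexpressed cells overlapped. Of the 100-base windows of this segment, 2.0% occurred in another V segment, and it differed from Trav14-3, its nearest copy, by 8 bases. Of the γδ T cell markers, Tcrg-C1 had an FPKM of 51.0 in WT, 18.1 in mosaic Brg1-sufficient and 6.73 in mosaic Brg1-deleted cells. In untreated, Brg1-deleted and Brg1-reexpressed rKO1 cells it was 5.13, 31.2 and 1.10. Both Tcrg-C1 and the share of Trav14d-3-dv8 were highest in WT. In rKO1 Brg1-deleted against mosaic Brg1-deleted cells, Tcrg-C1 was higher and the share lower. Trdc, the constant gene of the δ chain, was at 0.599–1.77 FPKM and Trav14d-3-dv8 at 7.68–61.7. The summed FPKM of the 5 γδ markers ranged from 2.63 to 79.2, and their part in the result was not tested.

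Trav7-4, the α segment with the highest mean share, had 5.05%, 4.90% and 4.75% in WT, mosaic Brg1-sufficient and mosaic Brg1-deleted cells and 3.55%, 4.38% and 4.5% in untreated, Brg1-deleted and Brg1-reexpressed rKO1 cells. Trav7d-4, which differs from it by 1 base, had 1.39%, 1.47%, 1.3%, 4.43%, 2.61% and 2.0% in the same order and was the most used α segment of untreated rKO1 cells. These copies thus ran in opposite directions. The sum of Trav7-4, Trav7d-4 and Trav7n-4 varied less, from 7.70% to 9.39%. As 43.2% of the Trav7-4 windows and 46.6% of the Trav7d-4 windows of 100 bases are shared with another V segment, the split between the copies is less certain than their sum.

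Trav7d-4 lies in a stretch of 19 neighbouring members at the far end of the locus, from Trav1 to Trav13d-1. The end of this stretch was set after the values were seen, and the counts are a description. The stretch took 6.69% of the Trav FPKM in WT, 8.46% in mosaic Brg1-sufficient and 8.30% in mosaic Brg1-deleted cells. It took 19.5% in untreated rKO1 (702 reads), 12.7% in rKO1 Brg1-deleted (492 reads) and 10.2% in rKO1 Brg1-reexpressed cells (597 reads). All rKO1 total Treg libraries were again above the others. The aTreg libraries, also from rKO1 mice, had 8.62% (labelled Brg1-deleted) and 7.41% (labelled Brg1-reexpressed), near the WT and mosaic values. Among the total Treg libraries, 17 of the 19 segments had their highest share in untreated rKO1 cells. Of all Trav segments, 10 of 20 d copies, 4 of 22 n copies and 14 of 46 without a letter did so. Among the 19, the untreated interval was clear of the next library for Trav7d-3 and Trav7d-4 alone. The 7 segments before the d copies, Trav1 to Trav6-2, of which 6 share no window and Trav3-1 shares 2.4% with other V segments, went from 3.05% in WT to 8.33% in untreated rKO1 cells, and all 7 were highest there. Trav1 had 0.53%, 0.37%, 0.46%, 1.07%, 0.82% and 0.60% in the order given above. The next 8 members, the d copies after Trav13d-1, took 11.5% in WT, 8.17% and 8.31% in the mosaic libraries, 3.34% in untreated rKO1, 5.79% in rKO1 Brg1-deleted and 6.25% in rKO1 Brg1-reexpressed cells, and none of the 8 was highest in untreated rKO1 cells. Trav14d-3-dv8 is 1 of these 8.

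**Figure D3:**
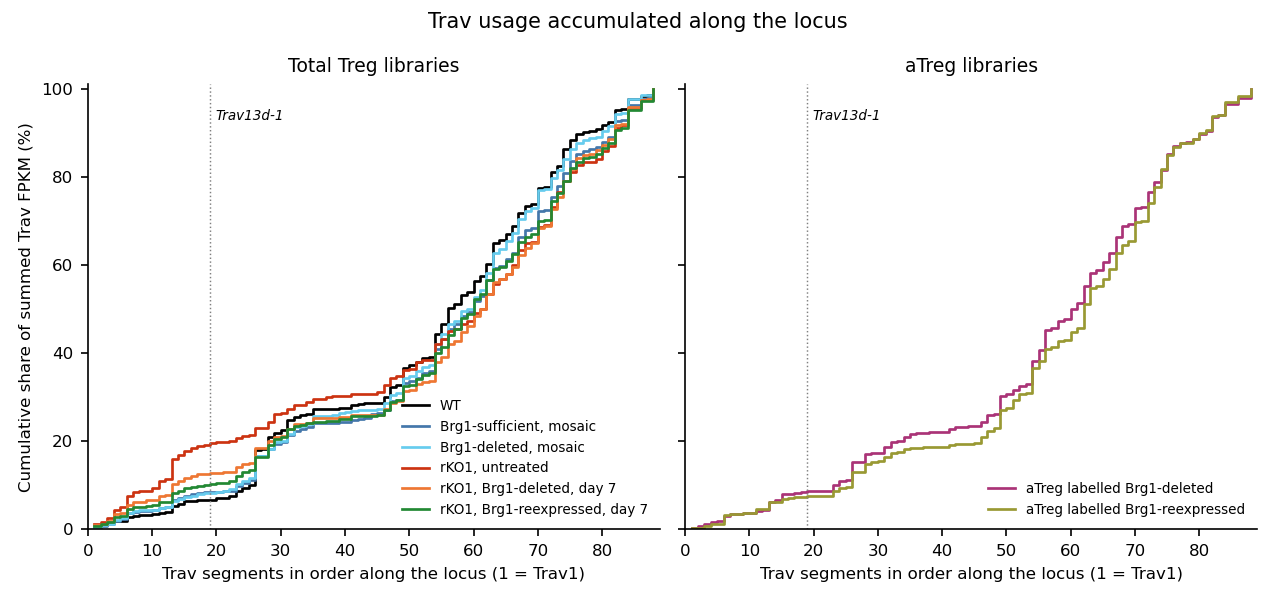
Cumulative share of the summed Trav FPKM (percent, y axis) over the 88 Trav segments in their order along the locus (x axis, from Trav1), for the 6 total Treg libraries (left) and the 2 aTreg libraries (right), with 1 line per library and a dotted line at Trav13d-1. By that segment, the line of untreated rKO1 cells has reached 19.5% and that of WT cells 6.69%, and the lines come closer again at the steep step of Trav14d-3-dv8.

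The segments of the invariant NKT cell chain had low values. Trav11, of the invariant NKT cell chain, did not meet the limit for members, with an FPKM of 0.960 in WT and 0–0.369 elsewhere. Its d copy, Trav11d, had shares of 0.05–0.19% in the total Treg libraries. All windows of Trav11d occur in another V segment, so that its reads are uncertain and low values do not show rare use. Zbtb16, which marks invariant NKT cells, stayed at 0.0719 FPKM or less. Trav6n-7 took 0.99% in mosaic Brg1-sufficient cells (60 reads) and had 0 reads in mosaic Brg1-deleted and all rKO1 total Treg cells and 1 read in WT. In the aTreg libraries labelled Brg1-deleted and Brg1-reexpressed it had 2 and 16 reads. All its windows are shared with another V segment.

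Evenness of usage was taken as Pielou's index, the Shannon entropy of the shares divided by its maximum, which is 1 when all segments are used alike. For Trav it was 0.872 ± 0.003 (counting SE) in WT, 0.890 ± 0.002 in mosaic Brg1-sufficient, 0.893 ± 0.002 in mosaic Brg1-deleted, 0.901 ± 0.003 in untreated rKO1, 0.892 ± 0.003 in rKO1 Brg1-deleted and 0.894 ± 0.002 in rKO1 Brg1-reexpressed cells. WT cells were the least even and untreated rKO1 cells the most, and the other 4 libraries lay between 0.890 and 0.894. The effective number of α segments, the number of equally used segments with the same entropy, was 49.5 in WT and 56.4 in untreated rKO1 cells. For Trbv, evenness was 0.867 in WT, 0.873 in mosaic Brg1-sufficient, 0.875 in mosaic Brg1-deleted, 0.875 in untreated rKO1, 0.887 in rKO1 Brg1-deleted and 0.880 in rKO1 Brg1-reexpressed cells, with counting SE of 0.0016–0.0024 and effective numbers of 15.7–16.7. For both chains, the difference between the lowest and the highest total Treg library was larger than the counting SE.

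**Figure D4:**
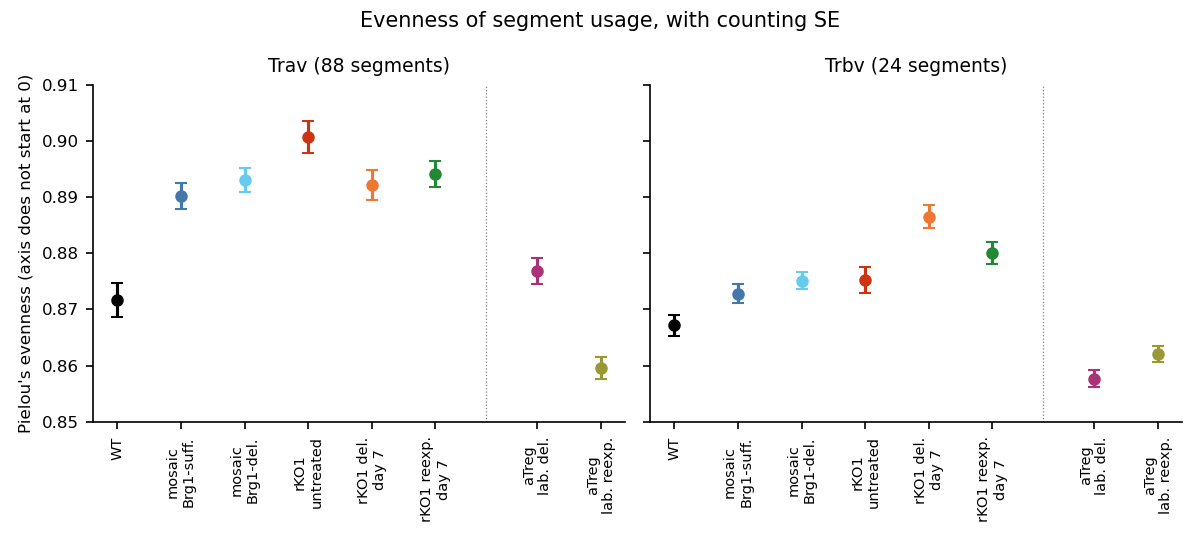
Pielou's evenness (y axis, no unit, drawn from 0.85 to 0.91) of Trav usage over 88 segments (left) and Trbv usage over 24 segments (right) in each library (x axis; aTreg libraries right of the dotted line), with counting SE as bars. Trav evenness runs from 0.872 (WT) to 0.901 (untreated rKO1) in the total Treg libraries, and the aTreg library labelled Brg1-reexpressed is the lowest of all, at 0.860.

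The distance between libraries was taken as the summed rise in share from either library to the other, in percentage points, which is 0 for equal usage and 100 when no segment is shared. For Trav, the 5 pairs with untreated rKO1 cells differed by 15.4–28.8 points and the 10 other pairs by 10.1–19.4 points. For Trbv, these ranges were 8.26–18.5 and 6.75–12.8 points. The closest pair was that of the mosaic subsets for Trav (10.1 points) and that of WT and mosaic Brg1-sufficient cells for Trbv (6.75 points). Pooled by family, the Trav distance was 4.05 points between the mosaic subsets and the Trbv distance 4.42 points between WT and mosaic Brg1-sufficient cells. The farthest pairs were WT and untreated rKO1 for Trav and mosaic Brg1-sufficient and untreated rKO1 for Trbv. Without Trbv26 and Trbv12-2, the Trbv pairs with untreated rKO1 cells differed by 5.56–11.1 points (median 9.74) and the others by 5.53–10.1 points (median 7.29). Without the stretch from Trav1 to Trav13d-1, the Trav ranges were 13.8–25.1 (median 17.0) and 10.1–17.9 points (median 13.3). Both removals were chosen after the values were seen.

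**Figure D5:**
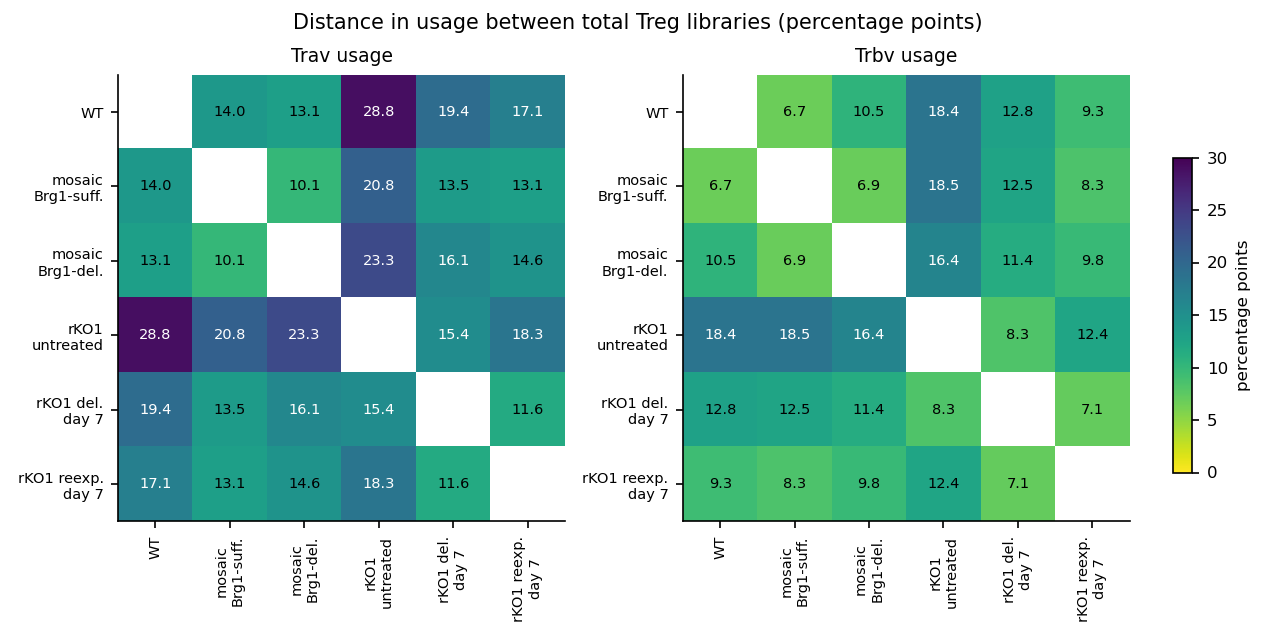
Distance in Trav usage (left) and Trbv usage (right) between each pair of the 6 total Treg libraries, in percentage points, written in each cell and shaded on a scale from 0 to 30. The row of untreated rKO1 cells is the darkest for both chains, up to 28.8 points from WT for Trav and 18.5 points from mosaic Brg1-sufficient cells for Trbv.

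The comparison of the mosaic subsets addressed usage with and without Brg1 in healthy mice. A segment was called in usage when its share differed at least 1.5-fold and was 1% or more in either library. Of 38 Trav segments, 7 were called, 2 higher and 5 lower in Brg1-sufficient cells, and of 17 Trbv segments, Trbv12-1 was called. With segments pooled by family, 3 Trav families and 0 Trbv families were called. Families are fewer than segments, and the all-gene shares in this and the other pairs apply to single segments only. For comparison, 19.6% of all genes with an FPKM of 5 or more differed at least 1.5-fold between these libraries after scaling, a share close to that of the Trav segments. Trbv12-1 was 1.99-fold higher in Brg1-deleted than in Brg1-sufficient cells (interval 1.78–2.22). Trav14-1 was 1.60-fold higher (1.33–1.92; 4.47% and 2.80%) and Trav14n-1 2.50-fold higher (1.82–3.49; 1.89% and 0.75%). All windows of Trav14n-1 occur in another V segment, which its interval does not cover. In the other direction, Trav14-3 had 3.81% in Brg1-sufficient and 2.68% in Brg1-deleted cells, Trav19 was called with 1.47% and 0.86%, and Trbv1 had 10.5% and 8.78%.

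The comparison of rKO1 Brg1-reexpressed with Brg1-deleted cells, 7 days after TAM, addressed the same in inflamed mice. Of 41 Trav segments, 8 were called, 3 higher and 5 lower in reexpressed cells, and of 18 Trbv segments, Trbv12-1 was called, against 28.1% of all genes with an FPKM of 5 or more. Pooled by family, 1 Trav and 0 Trbv families were called. Trbv12-1 was 1.57-fold higher in Brg1-deleted cells (1.34–1.84), the direction of the mosaic pair. With 1 library on each side of both pairs, this is not a replicate check. Trav14n-1, whose windows all occur in another V segment, was also called in both pairs in this direction. Here it had 1.09% in Brg1-deleted and 0.35% in reexpressed cells. Trbv26 was 1.41-fold higher (1.26–1.59) and Trbv12-2 1.21-fold higher (1.10–1.33) in Brg1-deleted cells, while Trbv1 (11.2% and 9.30%) and Trbv13-2 (10.6% and 8.81%) were higher in reexpressed cells. Among the Trav segments, Trav7-5 (3.56% and 2.27%) and Trav7n-4 (2.62% and 1.59%) were higher in reexpressed cells, and Trav9-4 (1.68% and 2.61%) and Trav6-7-dv9 (1.41% and 2.33%) were lower.

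This pair also differed in the level of Trav RNA. Of 78 Trav segments with an FPKM of 1 or more in either library, 24 were at least 2-fold higher in reexpressed cells and 1 was lower on the log2(FPKM + 0.1) scale, with a median log2 fold change of 0.66. The count in either direction, 25, was 15 with a pseudocount of 1 and 11 among segments with an FPKM of 5 or more. The all-gene shares in level, here and for the other pairs, apply to the log2(FPKM + 0.1) scale and an FPKM of 1 or more. Such recounts therefore have no all-gene share beside them. Among all genes tested, 8.5% were at least 2-fold higher and 9.34% lower (17.8% in either direction), and the median was 0.006. Of 24 Trbv segments, 0 were higher and 1 was lower, with a median of 0.20. The summed Trav FPKM was 1.59-fold higher in reexpressed cells and Trac 1.62-fold higher, while summed Trbv was 1.14-fold and the Trbc genes 1.20-fold higher. Variable and constant α genes therefore differed to a like extent. In the mosaic pair, 2 Trav segments were 2-fold higher and 5 lower in Brg1-sufficient cells, of 81 (7 in all, 4 with a pseudocount of 1, 2 at an FPKM of 5 or more and 11 with no filter), against 5.52% of all genes higher and 5.39% lower (10.9% in either direction). Of 23 Trbv segments, 0 were higher and 2 lower, among them Trbv12-1. The summed Trav level was 0.997 times and Trac 1.33 times that of Brg1-deleted cells.

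Untreated and TAM-treated Brg1-deleted rKO1 cells were compared as Brg1-deleted cells without and with TAM. Of 44 Trav segments, 15 were called in usage, 5 higher and 10 lower in untreated cells, against 14.7% of all genes with an FPKM of 5 or more, and of 18 Trbv segments, 0 were called. Pooled by family, 1 Trav family was called. Trav14d-3-dv8 was 2.42-fold higher in treated cells (1.80–3.30), and Trav9-1 had 1.74% in untreated and 2.91% in treated cells. Trav7d-4 was 1.69-fold higher in untreated cells (1.34–2.15), and Trav9n-1, listed as a pseudogene, 2.37-fold higher (1.49–3.85; 61 and 28 reads). Below the limit for a call, Trbv12-2 was 1.34-fold (1.22–1.48) and Trbv26 1.28-fold higher (1.15–1.42) in untreated cells. In level, 7 Trav segments were 2-fold higher and 7 lower, of 75 (14 in all, 8 with a pseudocount of 1 and 6 at an FPKM of 5 or more), and 0 of 23 Trbv segments were called, against 5.96% of all genes higher and 5.02% lower (11% in either direction).

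WT and mosaic Brg1-sufficient cells were the control libraries without inflammation. Of 38 Trav segments, 9 were called in usage, 4 higher and 5 lower in WT, and of 17 Trbv segments, Trbv26 was called, 1.79-fold higher in mosaic Brg1-sufficient cells (1.49–2.15), against 29.1% of all genes with an FPKM of 5 or more. Pooled by family, 2 Trav families were called. Trav14-1 (4.78% in WT and 2.80%) and Trav9-1 (3.56% and 2.21%) were higher in WT, and Trav9-4 (1.35% and 2.51%), Trav14-3 (2.78% and 3.81%, below the limit for a call) and Trav19 (0.75% and 1.47%) were lower. Among β segments below the limit, Trbv13-2 (12.7% and 10.9%), Trbv20 (8.06% and 6.40%) and Trbv31 were higher in WT, and Trbv13-1 (5.25% and 6.74%) was lower. In level, 3 Trav segments were 2-fold higher and 6 lower in WT, of 79 (9 in all, 4 with a pseudocount of 1, 3 at an FPKM of 5 or more and 14 with no filter), and Trbv4, Trbv24 and Trbv30 of 22 Trbv segments were higher, against 8.71% of all genes higher and 6.21% lower (14.9% in either direction). The controls lay 14.0 points apart in Trav usage (7.62 pooled by family), against 10.1 points for the mosaic pair (4.05) and 11.6 points for the rKO1 pair after TAM (5.73). In Trbv usage the distances were 6.75, 6.88 and 7.13 points.

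Activated Treg cells were described apart, since they were sequenced in another experiment. Trbv13-2 was the most used β segment of both libraries, with 15.1% in the library labelled Brg1-deleted and 14.1% in that labelled Brg1-reexpressed, followed by Trbv16 with 11.4% and 10.6%. Trbv26 had 2.56% (487 reads) and 4.55% (940 reads), was 1.77-fold higher in the library labelled Brg1-reexpressed (1.59–1.98) and was the called one of 17 Trbv segments. In the total Treg cells of rKO1 mice after TAM it was lower in the Brg1-reexpressed library. Trbv12-2 had 5.04% and 6.34%, Trbv12-1 2.43% and 2.15%, and Trbv31 5.28% and 4.02% in the libraries labelled Brg1-deleted and Brg1-reexpressed.

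Of 36 Trav segments, 9 were called between the aTreg libraries, 5 higher and 4 lower in that labelled Brg1-reexpressed, against 17.4% of all genes with an FPKM of 5 or more. Pooled by family, 0 Trav families were called. Trav6-3 was 1.92-fold higher (1.44–2.58), Trav9-4 1.60-fold (1.32–1.95) and Trav4-4-dv10 1.51-fold higher (1.25–1.82) in the library labelled Brg1-reexpressed, and Trav13-1 had 5.48% there and 3.76% in the other. Of the Trav6-3 windows, 84.8% occur in another V segment, so that its reads are uncertain. Trav9-1 was 1.63-fold (1.38–1.92) and Trav8-1 1.56-fold higher (1.21–2.02) in the library labelled Brg1-deleted. Trav7-4 led in both, with 5.25% and 5.68%. Evenness of Trav usage was 0.877 ± 0.002 in the library labelled Brg1-deleted and 0.860 ± 0.002 in that labelled Brg1-reexpressed, with effective numbers of 50.7 and 46.9, a difference larger than the counting SE. Evenness of Trbv usage was 0.858 and 0.862. The libraries were 12.4 points apart in Trav and 6.36 points in Trbv usage. In level, 7 Trav segments were 2-fold higher and 6 lower of 77 (13 in all, 7 with a pseudocount of 1 and 5 at an FPKM of 5 or more), and Trbv5 of 22 Trbv segments was higher, against 7.09% of all genes higher and 3.56% lower (10.7% in either direction). Erythroid genes differed between these libraries: the summed FPKM of 6 erythroid markers was 1500 in the library labelled Brg1-deleted and 28864 in that labelled Brg1-reexpressed, against at most 860 in total Treg cells. Their part in the usage was not tested. Shares within a locus do not depend on the reads that other genes take, but this covers scaling only and not differences in cell content.

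Few of the genes that carry and relay the TCR signal differed 2-fold in level in the same pairs. None of these pairs set rKO1 against WT or mosaic cells, so that levels between those groups are not covered. Of all genes, 10.9% differed 2-fold in either direction in the mosaic pair and 17.8% in the rKO1 pair after TAM. This share was 11% in rKO1 without and with TAM, 14.9% in the controls and 10.7% in the aTreg pair. A list of 30 genes held the CD3 chains, constant genes, coreceptor, kinases, adaptors and negative regulators. In the mosaic pair, 1 was at least 2-fold higher in Brg1-sufficient cells and 0 were lower. In the rKO1 pair after TAM, 1 was higher in reexpressed cells, Sla2, an adaptor that dampens TCR signalling, with an FPKM of 65.8 and 31.3. In each of the 3 other pairs, 0 were higher and 1 was lower. Ubash3b, a phosphatase that restrains TCR signalling, was the called gene in the mosaic pair (9.05 and 4.42), in untreated against treated rKO1 cells (0.663 and 1.83) and in WT against mosaic Brg1-sufficient cells (4.08 and 9.05). In the aTreg pair it was Cd3e, a CD3 chain, with 92.7 in the library labelled Brg1-reexpressed and 234 in that labelled Brg1-deleted. On the log2 scale, the list had a median fold of -0.004, 0.07, -0.07, 0.10 and -0.25 in the pairs of mosaic, rKO1 after TAM, rKO1 without and with TAM, control and aTreg libraries, and that of all genes 0.01, 0.006, -0.02, 0.05 and -0.07.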

How the data were processed

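RNA of sorted cells was copied with the SMART-Seq v4 kit and sequenced as paired ends of 150 bases. The submitters' processing notes name HISAT2 2.0, StringTie 1.3.3b and featureCounts 1.5.0-p3 and the build mm10. Each deposited table gives, per gene identifier, an FPKM that the authors computed. Of the 53465 identifiers, 53360 were found in GENCODE M21.

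Reads were recovered as FPKM times merged exon length, in units fitted per library. Within 0.02, 92.7–100% of genes and 100% of the members came out whole, and the recovery was tested on simulated data. The recovered reads on genes summed to 16324015–24093541, while the library totals implied by the FPKM were 0.815–1.08 times these sums. The sums are therefore an estimate of the depth. Shares, Pielou's evenness, distances, 2-fold differences in level (log2(FPKM + 0.1), FPKM of 1 or more in either library) and 1.5-fold differences in share (1% or more in either library) were computed with pandas 2.3.3, SciPy 1.17.1 and NumPy 2.4.6 under Python 3.11.15, and drawn with matplotlib 3.10.9. Before all genes were counted at 1.5-fold, libraries were brought to one scale by TMM, written for this purpose with trims of 30% and 5%.

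Libraries were grouped by their titles, and 5 pairs were compared. With 1 library per condition, no count model was fitted and no test was made. Segments were named by a rule: the 8 with the highest mean share per locus, the 2 largest rises and 2 largest falls in share in each pair, segments of invariant chains and Trbv31. Trbv23, Trav19, Trav6-3, Trav8n-2, Cd8b1, Ighm, Lyz2, Ubash3b, Sla2 and the stretch from Trav1 to Trav13d-1 were named after their values were seen, as were segments listed as rarely used. Members and lists were chosen with earlier results of these data known. Amino acid sequences were not analysed here.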

Additional observations from a re-analysis of the deposited data

Results flagged for a closer look

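The share of 3 Trav segments differed in opposite directions in the aTreg pair, taken by its labels, and in another pair, each past 1.5-fold. Smarca4 was 11.1 in the aTreg library labelled Brg1-deleted and 9.02 in that labelled Brg1-reexpressed, with 1 library each. The ΔR allele still expresses the exons before its gene trap, and the Brg1-deleted total Treg libraries had 6.13–7.44. The FPKM of the whole gene therefore cannot settle whether these labels are right, which was not tested. As the 3 segments were picked for their opposite directions, exchanging the aTreg labels would align them by construction. They therefore say nothing about the labels. The difference between the pairs was not tested, as each condition had 1 library. Trav8n-2 was 0.652 times as high in mosaic Brg1-sufficient as in mosaic Brg1-deleted cells and 1.54 times as high in the aTreg library labelled Brg1-reexpressed as in that labelled Brg1-deleted. Trav6-3 was 0.645 times as high in the mosaic pair and 1.92 times as high in the aTreg pair, and 84.8% of its windows of 100 bases occur in another V segment. Trav9-4 was 0.645 times as high in rKO1 Brg1-reexpressed as in rKO1 Brg1-deleted cells after TAM and 1.60 times as high in the aTreg pair, in which Smarca4 went against the labels.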

How the results depend on the processing

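No paired analysis was possible because each condition had 1 library. Of the values recomputed for whole comparisons, 108 stayed close to those given, 46 moved and 0 reversed, and of those for single segments 443 stayed and 77 moved. Pairs are listed as mosaic, rKO1 after TAM, rKO1 without and with TAM, controls and aTreg. With segments pooled by family, the Trav distances were 4.05, 5.73, 6.70, 7.62 and 5.91 points and the Trbv distance of the controls 4.42 points, the Trav calls in share were 3, 1, 1, 2 and 0, and Trbv had 0 in the mosaic pair and 0 in rKO1 after TAM. Pooling moved Trav evenness of untreated rKO1 minus WT to 0.0473 and Trbv evenness of rKO1 Brg1-deleted minus WT to 0.0295. As inverse Simpson numbers, on another scale, these differences were 9.44 and 1.22, and those of the aTreg pair -3.69 (Trav) and 0.395 (Trbv). With members of an FPKM of 5 or more the first was 0.0195, and Trav calls in level were 2, 11, 6, 3 and 5, with 1, 0 and 0 Trbv calls in mosaic, rKO1 after TAM and aTreg. With a pseudocount of 1 Trav calls in level were 4, 15, 8, 4 and 7, with 1, 0 and 0 Trbv calls in the same pairs. With no filter, Trav had 11 in the mosaic and 14 in the control pair, and Trbv 1 in rKO1 without and with TAM and 2 in aTreg. No all-gene share is given at these altered limits, so that the recounts are not set against all genes. At 0.5% or more, Trav calls in share were 11, 14, 15 and 14 in mosaic, rKO1 after TAM, controls and aTreg, and Trbv 2 in the controls. The count of Trbv segments lowest in untreated rKO1 cells was 4 without Trbv26 and Trbv12-2. The span of evenness over total Treg libraries was 0.0224 (Trav) and 0.0194 (Trbv) without untreated rKO1. These removals, and the restriction to segments with under 50% of windows shared, were chosen after seeing the data. Differences under the counting intervals were not detectable at this depth, and variation between animals could not be estimated.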
